A study of Populus trichocarpa with 12 samples.

Results

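PtrNAC006, PtrNAC007 and PtrNAC120 are 3 NAC genes of Populus trichocarpa (black cottonwood) that were designated as stress factors downstream of AREB1. They were located in the deposited count table by their identifiers, Potri.002G081000, Potri.007G099400 and Potri.001G404100, which number them on chromosomes 2, 7 and 1. All 3 were found among the 41335 genes listed, and all 3 passed the filter on low counts. PtrNAC120, with at most 7 reads in a day 0 library, passed it through the drought libraries alone. RNA was sequenced from stem differentiating xylem, the soft young wood scraped from debarked stems above the soil, of trees grown for 3 months in a greenhouse. The 12 libraries formed 3 groups of 4: fully irrigated trees on day 0, with soil at 74% and xylem at 80.6% water; trees after 5 days without watering, under mild drought, with 33% and 75.3%; and trees after 7 days without watering, under severe drought, with 29% and 74.3%. The labels name no other genotype or agent for these libraries and do not say whether each came from 1 tree. They mention 6 planting batches and do not assign these libraries to any, and trees watered until day 5 or day 7 were not analysed here, so drought and day of harvest cannot be told apart.

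NAC proteins are plant transcription factors that share a DNA-binding domain near the N-terminus, and they form one of the largest regulator families in plants. Some of them switch on the secondary walls of wood, and others respond to drought, salt and the hormone abscisic acid. AREB1 belongs to the bZIP factors that bind abscisic acid response elements in promoters, and in black cottonwood it is known to act with the adaptor ADA2b and the histone acetyltransferase GCN5 on stress NAC genes. The question put to the counts was how strongly, how early and how evenly each of the 3 NAC genes responded in xylem. The first drought libraries were those of day 5, so when or in what order the genes rose before then could not be seen.

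Total counts ranged from 9351583 to 19223816 per library. The xylem label was checked on 9 genes known from published designations, which the files do not give, as secondary wall cellulose synthases and lignin pathway enzymes. None of the 9 was at 0 in any library, and together they took 0.548% to 1.94% of scaled counts on day 0, 0.128% to 0.334% on day 5 and 0.0298% to 0.122% on day 7, the highest share of day 7 being that of replicate 2. By edgeR 7 of the 9 were lower and 2 not called on day 5 against day 0, with a median log2 fold change of -2.10, where 28.8% of all genes tested were lower. On day 7 against day 0 all 9 were lower, with a median of -4.48, where 23.6% of all genes were lower. Scraped tissue is a mixture, so fewer cells of a type and less RNA per cell cannot be told apart, and for the NAC genes neither can more cells and more RNA per cell.

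All 3 NAC genes were low in watered xylem, PtrNAC120 close to undetected, and all 3 rose under mild drought. PtrNAC006 rose 85.3-fold on day 5 against day 0, PtrNAC007 rose 154-fold and PtrNAC120 rose 841-fold. Under severe drought, on day 7, the fold change against day 0 was 78.3 for PtrNAC006, 111 for PtrNAC007 and 997 for PtrNAC120. Together the 3 genes took between 0.0735% and 0.141% of all counts in the day 5 libraries and between 0.0580% and 0.135% in the day 7 libraries, against 0.000499% to 0.00113% in the day 0 libraries.

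PtrNAC006 had 4.89, 3.07, 5.59 and 6.90 CPM (counts scaled to a library size of 1000000 by edgeR's TMM) in day 0 replicates 1 to 4. It had 566, 296, 377 and 509 CPM in day 5 replicates 1 to 4. On day 7 the same gene had 439, 355, 366 and 445 CPM. The drought libraries and the watered libraries were far apart, since the lowest day 5 value was 42.9 times and the lowest day 7 value 51.5 times the highest day 0 value.

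The mean of PtrNAC006 was 5.11 CPM ± 1.60 (SD, n = 4) on day 0, 437 CPM ± 123 on day 5 and 401 CPM ± 47.3 on day 7. Its log2 fold change was 6.41 ± 0.32 (SE) on day 5 against day 0, with an edgeR adjusted p of 4.37e-07. On day 7 against day 0 it was 6.29 ± 0.32 (SE), with an edgeR adjusted p of 5.58e-07. On day 7 PtrNAC006 varied least of the 3 genes. Its coefficient of variation on day 7 was 11.8%, where the median over all tested genes was 24.3%, while on day 0 (31.2%) and day 5 (28.1%) it lay above the medians of 20.1% and 20.6%. By unadjusted p, PtrNAC006 ranked 16th of 26943 genes on day 5 and 14th on day 7.

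PtrNAC007 had 2.69, 2.14, 4.62 and 2.90 CPM in day 0 replicates 1 to 4. On day 5 the 4 replicates held 617, 329, 503 and 461 CPM. On day 7 they held 337, 147, 207 and 690 CPM. The day 7 spread was the widest of the 3 genes, the highest library holding 4.70 times the lowest. On day 5 the spread was the narrowest of the 3, at 1.88 times, against 1.91 for PtrNAC006 and 3.27 for PtrNAC120. No drought library came near a watered one, since the lowest day 7 value was 31.8 times the highest day 0 value.

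Mean levels of PtrNAC007 were 3.09 CPM ± 1.07 (SD, n = 4) on day 0, 477 CPM ± 119 on day 5 and 345 CPM ± 243 on day 7. The log2 fold change against day 0 was 7.27 ± 0.56 (SE; edgeR adjusted p = 4.18e-06) on day 5 and 6.80 ± 0.55 (SE; edgeR adjusted p = 4.91e-06) on day 7. The coefficient of variation on day 7 was 70.4%, against the median of 24.3% over all tested genes.

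PtrNAC120 was close to undetected in watered xylem, with 2, 2, 1 and 7 reads in day 0 replicates 1 to 4. In CPM these were 0.192, 0.133, 0.0690 and 0.452. In day 5 replicates 1 to 4 it had 279, 85.3, 234 and 155 CPM, and on day 7 it had 254, 105, 254 and 281 CPM. The drought library with the fewest reads of this gene, day 7 replicate 2, held 1313, against at most 7 in a day 0 library, so the groups did not overlap on either day.

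The mean of PtrNAC120 was 0.211 CPM ± 0.168 (SD, n = 4) on day 0, 188 CPM ± 85.6 on day 5 and 223 CPM ± 80.3 on day 7. Its log2 fold change against day 0 was 9.72 ± 0.64 (SE; edgeR adjusted p = 1.84e-06) on day 5 and 9.96 ± 0.65 (SE; edgeR adjusted p = 1.50e-06) on day 7. The size rests on a baseline of 12 reads in all, for which an exact Poisson interval runs from 6.20 to 21.0 reads (95%). The ratio of pooled reads per total count was accordingly loose, at 788 (95% binomial interval 451 to 1526) for day 5 and 943 (539 to 1825) for day 7, intervals that cover counting error only. Of the 12 reads, 7 came from day 0 replicate 4, and without that library the log2 fold changes were 10.44 on day 5 and 10.69 on day 7, which is more than 1.5 times larger as a fold.

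**Figure D1:**
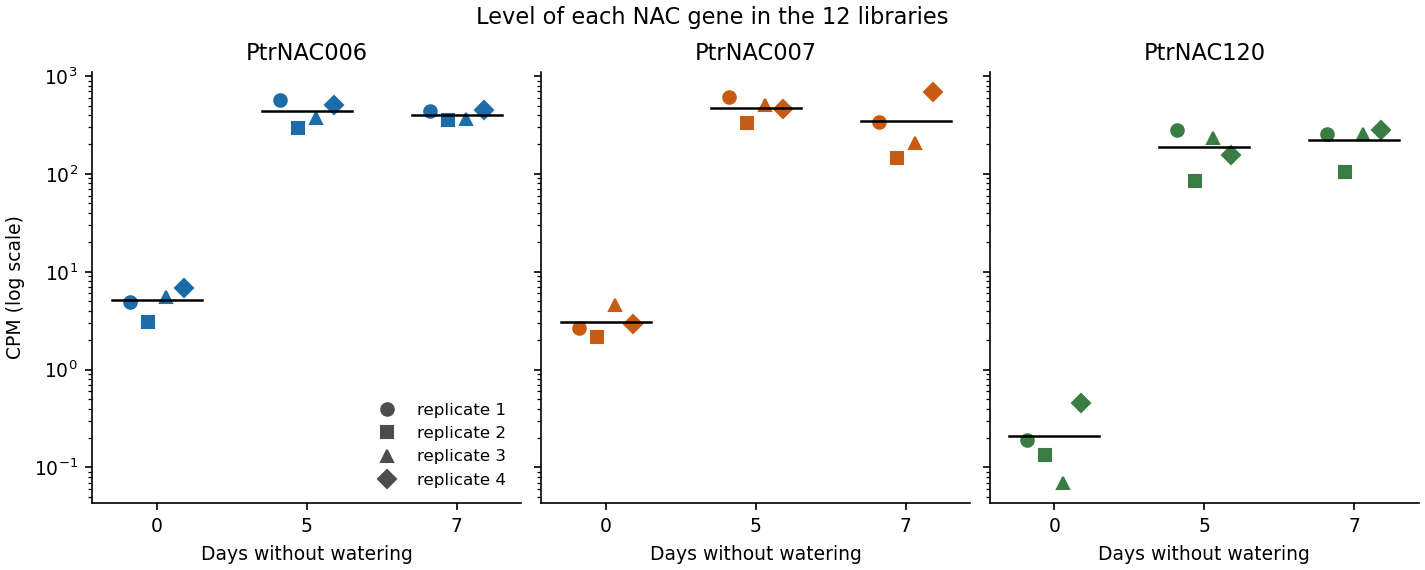
CPM on a log scale (y) against days without watering (x) for each NAC gene, with 1 symbol per library, the symbol giving the replicate number, and a line at the mean of the 4 libraries. In all 3 panels the day 5 and day 7 symbols lie far above those of day 0, and PtrNAC007 has its widest drought spread on day 7, between 147 and 690 CPM.

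Set among all genes, a call in itself was common: 29.9% of the 26943 genes tested were higher on day 5 and 27.5% were higher on day 7 (58.7% and 51.1% in either direction), so that 3 of 3 NAC genes called is read beside those shares. Their size was less common. On day 5, 650 genes (2.41%) had a larger log2 fold change than PtrNAC006, 442 (1.64%) a larger one than PtrNAC007 and 88 (0.327%) a larger one than PtrNAC120. On day 7 these were 508, 394 and 59 genes. On both days at once, 29 genes matched or exceeded PtrNAC120, while 260 did so for PtrNAC007 and 386 for PtrNAC006. Both days were measured against the same 4 watered libraries. Genes near 0 on day 0, such as PtrNAC120, were tested only if they had enough reads under drought. Because the genes were named as drought factors with results of this kind known, these places are a description.

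**Figure D2:**
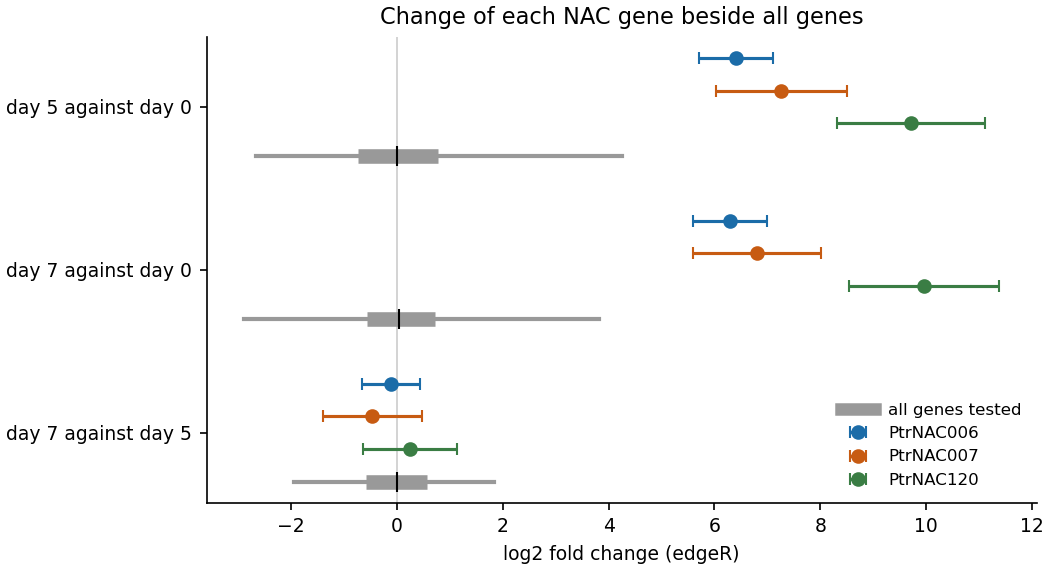
Log2 fold change by edgeR (x) for each NAC gene in the 3 comparisons (y), with 95% intervals as horizontal bars. Grey marks all 26943 genes tested, the thick part from the 25th to the 75th percentile, the thin line from the 5th to the 95th and the tick at the median. Against day 0 all 3 genes lie beyond the 95th percentile (4.25 on day 5 and 3.81 on day 7), and for day 7 against day 5 all 3 intervals include 0.

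Between mild and severe drought none of the 3 genes passed the test, in a comparison where 42.1% of all genes did (22.3% higher and 19.9% lower on day 7). PtrNAC006 had a log2 fold change of -0.12 on day 7 against day 5 (95% interval -0.67 to 0.43; edgeR adjusted p = 0.717). That of PtrNAC120 was 0.25 (-0.64 to 1.14; edgeR adjusted p = 0.650). The intervals limit any difference for PtrNAC006 to between 0.628 and 1.34 times the day 5 level, and for PtrNAC120 to between 0.640 and 2.20 times, which leaves room for moderate change in either direction.

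PtrNAC007 was the gene whose day 7 result turned on 1 library. Over all libraries its log2 fold change on day 7 against day 5 was -0.47 (95% interval -1.40 to 0.46; edgeR adjusted p = 0.396). Day 7 replicate 4 held 690 CPM, above every day 5 library, whereas day 7 replicates 2 and 3, at 147 and 207 CPM, were below every day 5 library. Without day 7 replicate 4 the log2 fold change was -1.04 and passed the test (edgeR adjusted p = 0.0299), and the change against day 0 was 6.25. For all 3 genes, then, the order of levels was clear of the spread only for each drought day against day 0, and with all libraries days 5 and 7 did not differ beyond their spread.

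**Figure D3:**
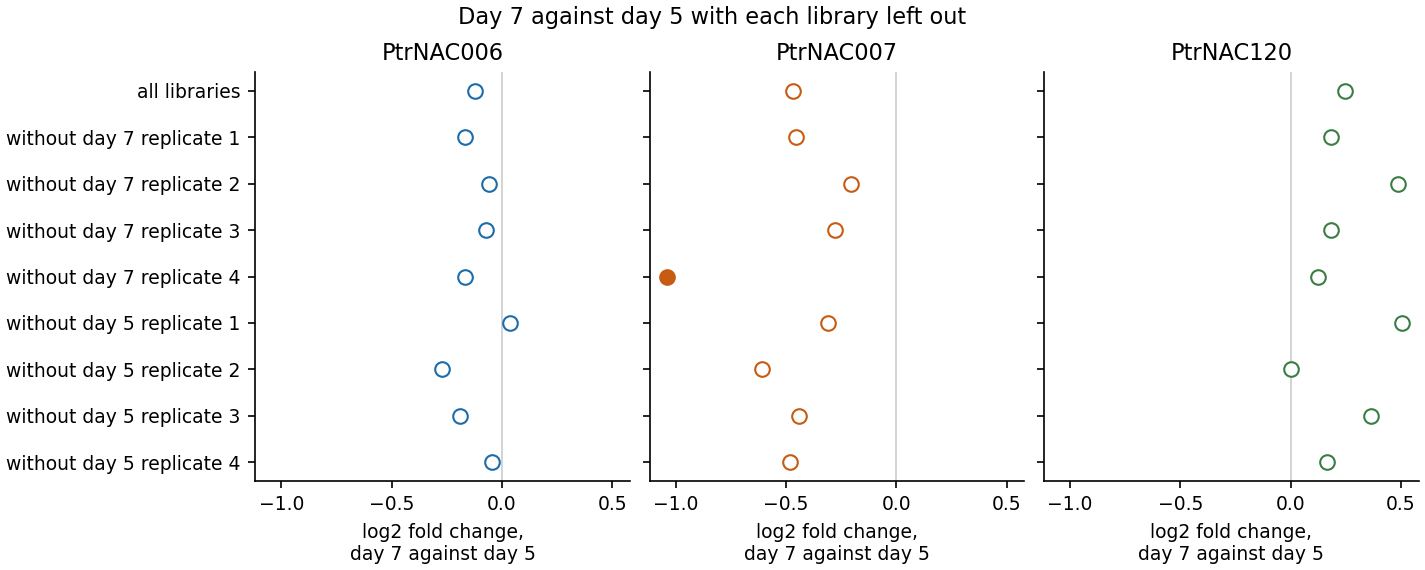
Log2 fold change on day 7 against day 5 (x) for each NAC gene over all 12 libraries and with each day 7 or day 5 library left out in turn (y). A filled symbol marks an edgeR adjusted p under 0.05. The single filled symbol is PtrNAC007 without day 7 replicate 4, at -1.04.

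Within each drought day the 3 genes ranked their libraries much alike. On day 5 all 3 were highest in replicate 1 and lowest in replicate 2. On day 7 all 3 were highest in replicate 4 and lowest in replicate 2, though for PtrNAC006 replicate 2 (355 CPM) was hardly below replicate 3 (366 CPM), and by share of unscaled counts replicate 3 was the lower one (0.0336% against 0.0340%). Day 5 replicate 2 was also the deepest library of the series, at 19223816 counts.

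Replicate 2 had the largest xylem marker share of day 7 and the second largest of day 5. On day 7 the 9 markers took 0.122% of scaled counts in replicate 2, against 0.0298% to 0.0330% in the other 3 libraries. On day 5 they took 0.317% in replicate 2 and 0.334% in replicate 3, against 0.191% in replicate 1 and 0.128% in replicate 4. PtrNAC006 was lower in both day 5 libraries with the larger share (296 and 377 CPM) than in both with the smaller one (566 and 509 CPM), whereas the other two genes did not follow this order. PtrNAC007 was at 503 CPM in replicate 3 and 461 CPM in replicate 4, and PtrNAC120 was at 234 CPM and 155 CPM in the same libraries. Their part in the NAC levels was not tested. Without day 7 replicate 2 the log2 fold changes on day 7 against day 0 were 6.37 for PtrNAC006, 7.08 for PtrNAC007 and 10.22 for PtrNAC120.

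**Figure D4:**
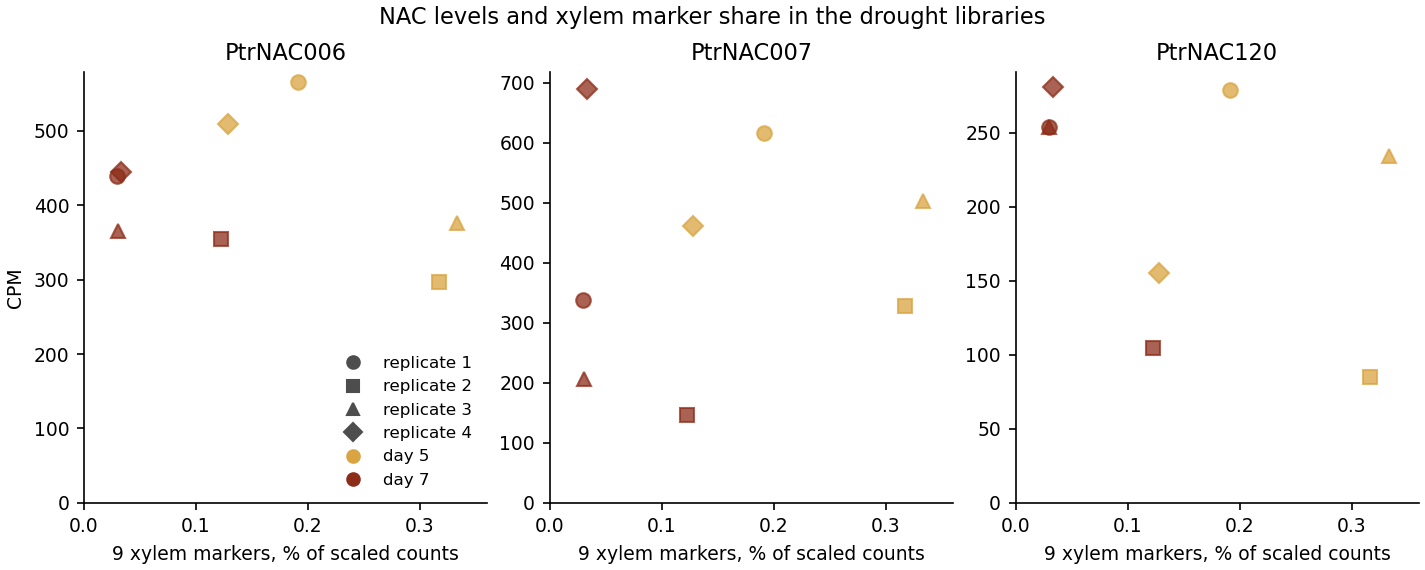
CPM of each NAC gene (y, from 0) against the share of scaled counts taken by the 9 xylem markers (x, in percent) in the 8 drought libraries, coloured by day, with the symbol giving the replicate number. Replicate 2 of day 7 has the lowest NAC level of that day in each panel and the largest marker share of that day, 0.122%.

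How evenly the genes responded was examined as the ratio of their counts within each library, which needs no scaling between libraries. Gene lengths cancel only between days, so the ratio itself is not a ratio of transcripts. The log2 ratio of PtrNAC120 to PtrNAC006 was -1.02, -1.80, -0.69 and -1.71 in day 5 replicates 1 to 4, against -4.36, -4.22, -5.76 and -3.84 in day 0 replicates 1 to 4. On day 7 it was -0.79, -1.77, -0.52 and -0.66. Every drought library was above every watered library.

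In the mean, this log2 ratio was higher by 3.24 on day 5 than on day 0, or 9.47-fold, and by 3.61 on day 7, or 12.2-fold. The log2 ratio of PtrNAC120 to PtrNAC007 was higher by 2.39 on day 5, or 5.23-fold, and by 3.35 on day 7, or 10.2-fold, again with no overlap with day 0. That of PtrNAC007 to PtrNAC006 was higher by 0.86 on day 5, or 1.81-fold, at 0.14 ± 0.23 on day 5 against -0.72 ± 0.42 on day 0 (SD, n = 4 each). Each of these 5 differences had an exact two-sided permutation p of 0.0286, the smallest that 4 against 4 libraries can give. After adjustment over the 9 ratio tests it was 0.0514, so none passed the corrected threshold. With 5 of 9 tests at the smallest p, the adjusted value cannot be lower, so this outcome does not show an equal response. The corresponding 95% intervals of the edgeR fold changes did not overlap between PtrNAC120 (8.31 to 11.1) and PtrNAC006 (5.71 to 7.12) on day 5, nor on day 7 (8.55 to 11.4 and 5.59 to 6.99). The interval of PtrNAC007 on day 5 (6.03 to 8.50) overlapped those of both other genes. On day 7 its interval (5.59 to 8.01) lay below that of PtrNAC120 and overlapped that of PtrNAC006. PtrNAC120 had only 1 to 7 reads per day 0 library, so the size of its ratios depends on the 0.5 added to each count. With nothing added, its mean log2 ratio to PtrNAC006 was higher by 3.56 on day 5 and by 3.93 on day 7 than on day 0. That to PtrNAC007 was higher by 2.70 and 3.66.

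On day 7 the log2 ratio of PtrNAC007 to PtrNAC006, at -0.46 ± 0.82, overlapped the -0.72 ± 0.42 of day 0 (exact permutation p = 0.657, adjusted 0.657). Between drought days the ratio of PtrNAC120 to PtrNAC007 was -0.48 ± 0.65 on day 7 and -1.44 ± 0.40 on day 5, a difference of 0.96 (exact permutation p = 0.0857, adjusted 0.129). Day 7 replicate 4 (-1.30), the library rich in PtrNAC007, was the one that lay among those of day 5.

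**Figure D5:**
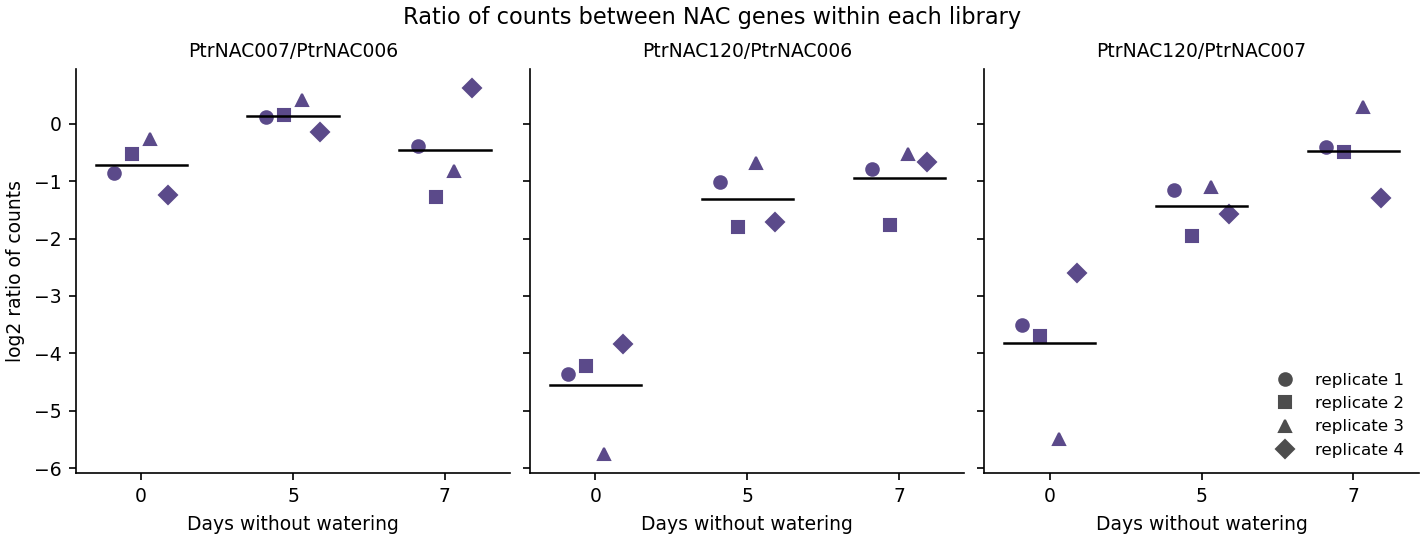
Log2 ratio of counts between each pair of NAC genes within a library (y) against days without watering (x), 1 symbol per library and a line at the mean of 4. For both ratios with PtrNAC120 on top, all day 5 and day 7 libraries lie above all day 0 libraries; for PtrNAC007 over PtrNAC006 all day 5 libraries do, and of the day 7 libraries replicate 4 alone.

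Genes with a similar course were sought by the root mean square difference of log2 CPM, each gene centred on its own mean, over the 12 libraries. PtrNAC007 was the 15th nearest of 26942 genes to PtrNAC006, at a distance of 0.588 log2 units, where the median gene was at 3.04. PtrNAC120 was farther from both, at 1.43 from PtrNAC006 and 1.29 from PtrNAC007. Within a distance of 1 log2 unit lay 186 genes for PtrNAC006, 147 for PtrNAC007 and 20 for PtrNAC120.

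The nearest genes carry no name in the files. For PtrNAC006 they were Potri.001G295500 (0.345), Potri.002G065600 (0.422) and Potri.010G245200 (0.438). Potri.001G295500 averaged 0.423 CPM when watered, 53.2 CPM after 5 days and 40.8 CPM after 7 days, and it was also the second nearest to PtrNAC007 (0.428), after Potri.010G107300 (0.357) and before Potri.004G068000 (0.436). For PtrNAC120 they were Potri.019G130600 (0.551), Potri.T178900 (0.554) and Potri.019G130500 (0.657). Potri.019G130500 and Potri.019G130600 have adjoining identifiers. Potri.T178900 had somewhat fewer reads than Potri.019G130600 in each drought library, as 2327 against 2872 in day 5 replicate 1 and 1129 against 1479 in day 7 replicate 4. Whether these loci share reads was not tested. Potri.019G130600 averaged 0.253 CPM when watered, 144 CPM after 5 days and 127 CPM after 7 days. Several of these genes had 0 to 3 reads in day 0 libraries, so their distance depends on the count of 2 added before taking logs. With 0.5 added instead, 3 of the 3 genes remained nearest for PtrNAC006 but 1 of 3 for PtrNAC007 and 1 of 3 for PtrNAC120.

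The loci next to the members were examined because reads of a neighbour could spill over, and whether counting used strand is not given in the sources used here. Of the 12 identifiers numbered within 2 places of a member, 6 had enough reads to be tested. By edgeR 4 of these were higher, 1 lower and 1 not called on day 5, and 4 were higher, 0 lower and 2 not called on day 7, where 29.9% and 27.5% of all genes were higher. Among the higher ones, Potri.002G080900, Potri.007G099200 and Potri.007G099300 had at most 1 pooled read on day 0. They passed the low-count filter through drought libraries alone and could hardly be called lower, so the tally does not measure a response around the members. Beside PtrNAC120 all 4 were nearly without reads on every day, with means of at most 0.0311 CPM. Beside PtrNAC006, Potri.002G080900 had no read on day 0 and averaged 1.42 CPM after 5 days and 2.92 CPM after 7 days. With 3 reads over the 4 day 0 libraries as the floor, these means lay 26.3-fold and 54.0-fold above it. Its rise against day 0 was called on both drought days (edgeR adjusted p = 0.00232 and 0.00108). Single libraries ranged from 0.452 to 2.12 CPM on day 5 and from 0.491 to 5.74 CPM on day 7. On the other side, Potri.002G081100 averaged 59.9 CPM on day 5 and 99.2 CPM on day 7, against 36.9 CPM on day 0, log2 fold changes of 0.70 and 1.43 (edgeR adjusted p = 0.00324 and 4.38e-05). Potri.002G080800 was lower on day 5 (log2 fold change -0.39, edgeR adjusted p = 0.0208) and not called on day 7 (0.18), and Potri.002G081200 was called on neither day (-0.35 and 0.17).

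Beside PtrNAC007, Potri.007G099200 and Potri.007G099300 also rose, at a small part of its level. Potri.007G099300 averaged 1.04 CPM on day 5, or 0.217% of the level of PtrNAC007, against 0.0161 CPM on day 0, where it had 1 read in all. The ratio of pooled reads was 60.2 (95% binomial interval 10.4 to 2412), and Potri.007G099200 had the same pooled 67 reads on day 5 and 1 on day 0, so reads shared between the pair were not excluded. On day 7 these neighbours averaged 1.23 and 1.37 CPM, with edgeR adjusted p of 0.000373 for Potri.007G099300 and 0.000306 for Potri.007G099200. Whether their reads belong to the NAC transcripts was not tested.

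The NAC genes of wood formation were examined beside the drought NAC genes. Of 4 identifiers known from published work as fibre-type wood NAC switches, designations that the files do not give, 0 were higher and 4 lower on both drought days, with median log2 fold changes of -3.50 on day 5 and -4.43 on day 7 against day 0, where the medians of all genes were -0.01 and 0.03. By edgeR 28.8% of all genes were lower on day 5 and 23.6% on day 7. Of 8 vessel-type switches 7 were tested. On day 5, 1 of them was higher, 0 were lower and 6 were not called (range -0.97 to 5.51), and on day 7, 2 were higher, 2 lower and 3 not called (range -2.72 to 3.94). The upper end of each range was the same gene, which was low throughout, with means of 0.0506 CPM on day 0, 2.84 CPM on day 5 and 0.960 CPM on day 7. It passed the low-count filter through drought libraries alone and could hardly be called lower. This gene was the 1 called higher on day 5 and 1 of the 2 on day 7, so the counts of higher genes do not measure a response of the list. Of all genes 29.9% were higher on day 5 and 27.5% on day 7, and the vessel-type count of 2 of 7 on day 7 was near that share.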

How the data were processed

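Per the submitters' processing notes the pipeline included TopHat. Versions, genome build, counting software and strand handling are not given in the sources. The authors deposited raw read counts for 41335 genes in 12 libraries, all used. Groups and replicate numbers came from the titles. Nothing says that replicates are separate trees, so p-values measure the spread between libraries, which may be technical. Replicates differed beyond counting noise (chi-square per degree of freedom of 13.1 or more).

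Counts were analysed over the whole table with edgeR 4.0.16 in R 4.3.3: filterByExpr (minimum count 10, 26943 genes kept), TMM scaling, 1 mean per day, quasi-likelihood F test, Benjamini-Hochberg adjustment, threshold 0.05. SE is the log2 fold change divided by √F. Count ratios had 0.5 added and were tested by two-sided exact permutation over 9 tests. The edgeR fit was checked on simulated counts with known changes on day 7 against day 0. Alternatives were other scalings and filters, DESeq2 1.42.0, limma-voom (limma 3.58.1), a minimum fold of 2, the 2 days alone, a replicate block and each library left out. Figures used matplotlib 3.10.9.

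The genes, lists and tests were chosen with earlier results of these data known. Named genes are the 3 members, the 3 nearest in course to each and the loci within 2 places. Of the identifiers, 0 matched the RefSeq table (P.trichocarpa_v4.1), so lists defined by product names, markers of other cell types and supposed gene duplicates were not analysed here.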

Additional observations from a re-analysis of the deposited data

Results flagged for a closer look

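Of 30 sets of 4 libraries examined (levels of the 3 NAC genes on 2 scales, their ratios and the xylem marker share on each day), 3 contained an outlying library by Dixon's criterion, with a critical value of 0.829. Chance marks about 1 in 20 independent sets, and these sets share genes and libraries. All 3 were day 7 replicate 2. PtrNAC120 was at 105 CPM there, or 6.71 on the log2 CPM scale, against 254 to 281 CPM in replicates 1, 3 and 4. The 9 xylem markers took 0.122% of scaled counts there, against 0.0298% to 0.0330%. Both were measured in the same library, and their relation was not tested.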

How the results depend on the processing

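The rise of each NAC gene against day 0 kept its direction and its call in all 108 values, over 10 settings and 8 left-out libraries for each of the 6 comparisons, with log2 fold changes of at least 6.12 and an adjusted p of at most 8.66e-05. With libraries left out, PtrNAC006 lay between 6.24 and 6.59 on day 5 and between 6.12 and 6.47 on day 7, PtrNAC007 between 7.13 and 7.52 and between 6.25 and 7.08, and PtrNAC120 between 9.42 and 10.44 and between 9.66 and 10.69. Of 54 values for day 7 against day 5, 2 changed: PtrNAC007 passed without day 7 replicate 4 (-1.04; its range was -1.04 to -0.21), and PtrNAC006 turned to 0.036 without day 5 replicate 1 (range -0.27 to 0.036, adjusted p 0.412 to 0.928). The ratio of PtrNAC007 to PtrNAC006 on day 7 against day 0 turned to -0.10 without day 7 replicate 4 (range -0.10 to 0.53). With 3 against 4 libraries the exact p cannot go below 0.0571, so those ratios say nothing of stability. Against a minimum fold of 2, 6062 genes were called on day 5 (3367 higher, 2695 lower), 5623 on day 7 (3197 and 2426) and 1789 between drought days (968 and 821), as that test asks for more, while all 3 NAC genes kept their calls against day 0. Total-count scaling moved the median of all genes on day 7 to -0.12. Replicate numbers gave no regular pairing: same-numbered libraries deviated together with r from -0.17 to 0.49 over genes, above 0.1 in 4 of 12 pairs. Different-numbered libraries had r from -0.43 to 0.24. The largest r, 0.49, was between replicate 2 of day 5 and replicate 2 of day 7, and whether same-numbered libraries were linked is not known. With a replicate block the log2 fold changes were 6.33 or more (adjusted p at most 1.95e-05), and 15206, 13095 and 10757 genes were called, against 15807, 13761 and 11344. Over 3 day means the nearest genes shared 1, 1 and 0 of 3 with those over 12 libraries. Depth limits the day 0 level of PtrNAC120.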
